A study of Homo sapiens with 6 samples.

Results

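The 65 genes described here encode the proteins of the cytosolic ribosome and close relatives of those proteins. They were chosen by name from 18417 genes with a single symbol in the platform annotation. The symbols taken were RPL or RPS with a number and at most a short suffix, together with RPLP1 and RPLP2. Symbols of S6 kinases, pseudogenes, antisense genes and Y-linked genes were left out. Of the members, 43 belong to the large, 60S subunit and 22 to the small, 40S subunit. A further 11 symbols that fit the name rule occur only on probe sets shared with other symbols and are not members, so the ribosome is described in part.

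Expression was measured on Affymetrix whole-transcript arrays in MDA-MB-231, an established line grown from a triple-negative breast cancer. In 1 group of 3 arrays the cells had received the vehicle DMSO, and in the other group of 3 they had received 10 µM YW3-56 for 8 h. The labels call the arrays of a group biological replicates and give no separate time for the vehicle. The comparison covers this 1 line, 1 dose and 1 time. YW3-56 is known as an inhibitor of peptidylarginine deiminases, enzymes that turn protein arginine into citrulline, and the comparison asks which transcripts differ after exposure to it. Values are RMA expression on the log2 scale, deposited as 1 value per probe set and array, and each gene is represented by its brightest probe set, judged on all 6 arrays. A gene was called higher or lower at an adjusted p under 0.05 in limma, with Benjamini-Hochberg adjustment over all 18417 genes.

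Each ribosome holds a single copy of most of its proteins, so cells make these proteins in near-equal amounts. Their messages are abundant and many begin with a 5′ terminal oligopyrimidine (TOP) tract, a C followed directly by further pyrimidines. Through that tract their translation follows the kinase complex mTORC1 and the protein LARP1. Many introns of these genes carry small nucleolar RNAs (snoRNAs), which guide the modification of ribosomal RNA, and many of the messages have processed pseudogene copies elsewhere in the genome.

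The start of the message is shown for members with and without a called difference, since the tract is the sequence feature these genes are best known for. The windows run from 15 bases before to 15 bases after the start that RefSeq gives on GRCh38.p14, 5′ to 3′ on the strand of the gene, and capitals mark a C at the start itself that is followed by at least 4 further bases of C or T. The first 4 belong to genes that were called lower.
RPL22L1 at chr3:170870181-170870210, minus strand: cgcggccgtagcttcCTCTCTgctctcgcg
RPS24 at chr10:78033848-78033877, plus strand: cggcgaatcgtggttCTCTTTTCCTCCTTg
RPL27A at chr11:8682777-8682806, plus strand: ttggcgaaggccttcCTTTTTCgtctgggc
RPL7L1 at chr6:42879601-42879630, plus strand: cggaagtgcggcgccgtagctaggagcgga
RPS6 at chr9:19380222-19380251, minus strand: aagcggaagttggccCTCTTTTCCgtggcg
RPS3 at chr11:75399503-75399532, plus strand: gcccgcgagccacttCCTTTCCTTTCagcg
RPL18 at chr19:48619164-48619193, minus strand: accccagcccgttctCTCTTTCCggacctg
RPLP2 at chr11:809952-809981, plus strand: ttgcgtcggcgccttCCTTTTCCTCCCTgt
RPL26 at chr17:8383179-8383208, minus strand: aagcagcgtgtagttCTCTTCCCTTTTgcg
RPL22 at chr1:6199581-6199610, minus strand: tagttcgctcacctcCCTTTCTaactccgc
RPS27 at chr1:153990747-153990776, plus strand: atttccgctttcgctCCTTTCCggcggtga
RPS27L at chr15:63157463-63157492, minus strand: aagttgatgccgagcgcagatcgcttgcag

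Read on the strand of the gene, the tract at the exact start was found in 37 of 54 members with an entry in the promoter table, or 68.5%, against 5.14% of all 27305 genes of that table, counting a gene if any of its listed starts holds the tract. A tract that begins within 5 bases of the start was present in 45 members, 83.3%, and in 25.2% of all genes. Among members that were called lower, 3 of 5 with an entry carried it at the start, and among members that were not called 34 of 49 did. Members with and without the tract at the start had median log2 differences of -0.07 and -0.06. The hexamer CCGGAA, the core of ETS factor sites, was present on either strand of the 300-base promoter in 31 of 54 members, 57.4%, and in 20.1% of all genes. RPL22L1 and RPS24 carry the tract, whereas these letters are not in the RPL7L1 window, and the paralogues RPS27 and RPS27L differ in the same way.

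Transcripts of most ribosomal proteins were measured at nearly the same level with and without YW3-56. Of the 65 members, 6 were called lower and 0 higher, and 59 did not pass. The members that fell were RPL22L1, RPL32, RPL23, RPL7L1, RPS24 and RPL27A, by 1.21- to 1.59-fold. The 6 are 9.23% of the members, while 11.5% of all tested genes were called lower, 9.84% higher and 21.4% in either direction, so the share of falls among members lies near the background. Among all genes with a mean inside the range of the members' middle 80% of values (from 8.08 to 13.43), 18.6% were called lower. At an unadjusted limma p under 0.05, 11 members passed, 16.9% beside 31.6% of all genes. With a trended and robust prior 10 members were called lower, 15.4%, and the share over all genes was then 13.6%. In RNA from a whole culture, fewer cells with a transcript and less of it per cell cannot be told apart.

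The median log2 difference of the members was -0.06, beside -0.05 for all genes. Without YW3-56 replicate 3 it was -0.09, beside -0.04 for all genes. Without DMSO replicate 3 the medians were -0.06 and -0.01, and without DMSO replicate 1 they were -0.07 and -0.09, so the order of members and all genes depends on the arrays. Below 0 lay 57 of 65 members, but only 34 lay below the median of all genes, and scaling moved the first count to 46 after centring of each array and to 50 after a second quantile normalization. An RMA table equalises the distributions of arrays, so a shift of all transcripts together would not be seen. For 41 of 65 members the difference was smaller than 0.1 on the log2 scale. This was so for 7305 of all 18417 genes and for 2659 of the 9539 genes within the members' middle 80% of signal. The 95% interval of the difference lay inside 1.2-fold either way for 36 of the 59 members without a call and inside 1.5-fold for all 59. A missed threshold does not show that the levels were equal, and these intervals give what the 3 arrays per group allow.

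**Figure D1:**
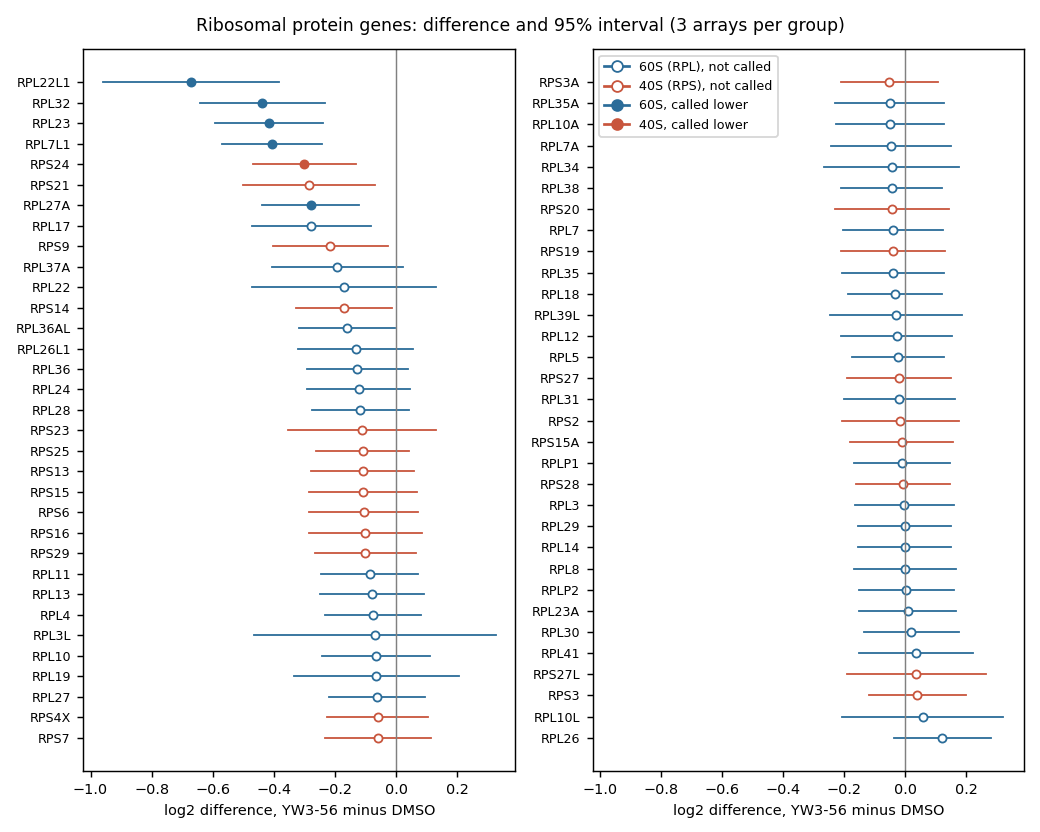
Log2 difference between YW3-56 and DMSO (x axis) with its 95% limma interval for all 65 ribosomal protein genes, ordered by difference; filled points were called, colours give the subunit. The 6 called genes lie between -0.67 and -0.28, and the intervals of most other genes span 0.

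RPL22L1 showed the largest difference of all members. It encodes a paralogue of RPL22, a 60S protein, and its 3 DMSO values were 8.45, 8.02 and 8.10 against 7.62, 7.37 and 7.55 in YW3-56. Every treated array lay below every DMSO array, although DMSO replicate 1 stood above the other controls. The log2 difference was -0.67 ± 0.13 (SE, n = 3 arrays per group), a 1.59-fold fall with a limma adjusted p of 0.0067. The call was lost when each gene was tested on its own variance alone (adjusted p = 0.064). RPL22 itself overlapped between groups, with 8.06, 7.68 and 7.57 in DMSO and 7.73, 7.58 and 7.49 in YW3-56. Its difference of -0.17 ± 0.13 did not pass (limma adjusted p = 0.447), and the difference between the paralogues was not tested. Both genes were measured weakly, with means of 7.85 for RPL22L1 and 7.68 for RPL22, below the median gene at 8.20. Their SD in DMSO was 0.23 and 0.25.

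RPL32 and RPL23 are 60S proteins, and RPL23 is also known to bind the ubiquitin ligase MDM2. RPL32 measured 9.93, 9.83 and 9.96 in DMSO and 9.62, 9.38 and 9.41 in YW3-56, a difference of -0.44 ± 0.09 (SE, limma adjusted p = 0.0097). Its groups did not overlap, and without YW3-56 replicate 3 the call was lost (adjusted p = 0.0517). RPL23 measured 9.46, 9.34 and 9.49 in DMSO and 9.08, 8.94 and 9.01 in YW3-56, and the difference was -0.42 ± 0.08 (limma adjusted p = 0.0066). The groups of RPL23 did not overlap either, and its call held whichever array was left out.

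RPL7L1 is a relative of RPL7 that is found in early precursors of the 60S subunit. It measured 11.997, 11.940 and 11.994 in DMSO and 11.576, 11.507 and 11.630 in YW3-56, so every treated array lay below every control. The spread within each group was small, with an SD of 0.03 in DMSO and 0.06 in YW3-56, and the difference was -0.41 ± 0.07 (SE, limma adjusted p = 0.0051). Its other probe set fell by 0.55 (limma adjusted p = 0.0013 over all probe sets). RPL7 did not pass, with a difference of -0.04 ± 0.07 and values of 12.37, 12.37 and 12.43 in DMSO and 12.29, 12.35 and 12.41 in YW3-56, which overlap.

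RPS24, a 40S protein whose gene is mutated in some patients with Diamond-Blackfan anaemia, was the only called member of the small subunit. It measured 11.57, 11.52 and 11.58 in DMSO and 11.17, 11.28 and 11.31 in YW3-56 (-0.30 ± 0.07 SE, limma adjusted p = 0.0218). RPL27A, a 60S protein that the oxygenase RIOX2 hydroxylates, measured 11.54, 11.45 and 11.53 in DMSO and 11.25, 11.23 and 11.21 in YW3-56 (-0.28 ± 0.07 SE, limma adjusted p = 0.0227). In both genes all treated arrays lay below all DMSO arrays. Both calls rest on the full set of arrays. Leaving out any array other than DMSO replicate 1 ended them, with adjusted p from 0.0559 to 0.0768 for RPS24 and from 0.0508 to 0.0973 for RPL27A. Centring of each array also ended the call of RPL27A (0.052). Without YW3-56 replicate 3 the count of called members was 3, or 4.62%, beside 6.55% called lower over all genes.

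RPS21 and RPL17 lay just outside the threshold. RPS21, a 40S protein, measured 9.40, 9.30 and 9.59 in DMSO and 9.14, 9.07 and 9.23 in YW3-56 (-0.29 ± 0.09 SE, limma adjusted p = 0.0658). RPL17, a 60S protein at the exit of the peptide tunnel, measured 7.27, 7.15 and 7.38 in DMSO and 7.06, 6.93 and 6.98 in YW3-56 (-0.28 ± 0.08, limma adjusted p = 0.0513). Both had treated arrays wholly below the controls. With replicate number as a block, both were called (limma adjusted p = 0.0231 for RPS21 and 0.033 for RPL17). The count of called members was then 8, or 12.3%, beside 14.4% called lower over all genes.

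RPS9, RPL37A and RPS14 had larger differences than most members, as did RPL22, whose groups overlap, and also did not pass. RPS9, a 40S protein near the message channel, measured 12.42, 12.42 and 12.58 in DMSO and 12.17, 12.31 and 12.29 in YW3-56 (-0.21 ± 0.08 SE, limma adjusted p = 0.109). RPS14, a 40S protein whose loss in myelodysplastic syndrome with a 5q deletion impairs red cell formation, measured 12.76, 12.84 and 12.78 in DMSO and 12.61, 12.62 and 12.64 in YW3-56 (-0.17 ± 0.07, adjusted p = 0.125). RPL37A, a 60S protein, had a difference of -0.19 ± 0.09. In RPS9, RPS14 and RPL37A every treated array lay below every DMSO array. RPS25, a 40S protein used by several viral internal ribosome entry sites, measured 12.95, 12.99 and 12.99 in DMSO and 12.87, 12.88 and 12.86 in YW3-56, with a difference of -0.11 ± 0.07 that did not pass (adjusted p = 0.318).

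**Figure D2:**
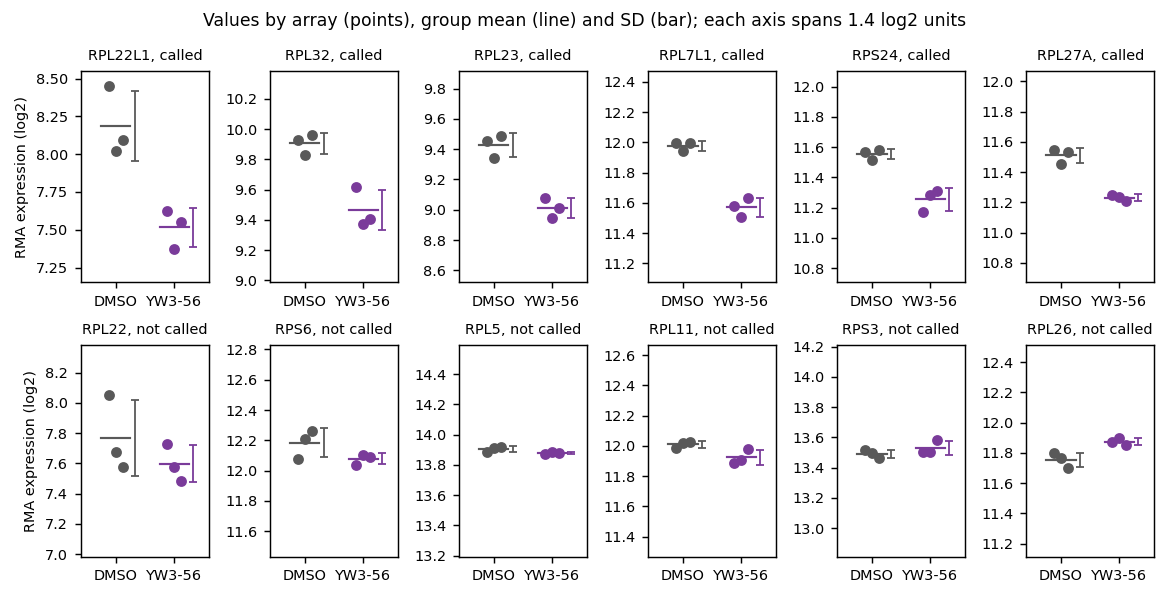
RMA expression on the log2 scale (y axis) in each of the 3 DMSO and 3 YW3-56 arrays for the 6 called genes (top) and 6 genes without a call (bottom); lines are means, bars SD. Groups are apart in all 6 top panels and in that of RPL11 and RPL26 below.

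Among the 65 members, the treated arrays lay wholly below the DMSO arrays in 21 and wholly above them in 1. Over all 18417 tested genes the counts were 3942 (21.4%) and 2862 (15.5%). Against all genes, the share wholly below was larger among members, and the share wholly above smaller. Of the 9539 genes within the members' middle 80% of signal, 3045 lay wholly below and 2266 wholly above. Beside these genes of like signal, the members' share wholly below was about the same, and only the share wholly above was smaller. The member wholly above was RPL26, a 60S protein near the exit of the peptide tunnel. It measured 11.80, 11.76 and 11.70 in DMSO and 11.87, 11.90 and 11.85 in YW3-56. Its difference of 0.12 ± 0.07 (SE) did not pass (limma adjusted p = 0.287). Its relative RPL26L1 had a difference of -0.13 ± 0.08 and overlapping groups.

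RPS3, RPL3, RPL10 and the stalk proteins, named whatever their values, were not called. RPS3, at the entry of the message channel, measured 13.52, 13.49 and 13.46 in DMSO and 13.50, 13.51 and 13.58 in YW3-56 (0.04 ± 0.07 SE). RPL3, near the peptidyl transferase centre, had a difference of -0.00 ± 0.07, with an interval from -0.16 to 0.16, and its sign turned with scaling. RPL10, which joins the 60S subunit late, had a difference of -0.07 ± 0.08. The stalk proteins RPLP1 and RPLP2, which recruit elongation factors, had differences of -0.01 ± 0.07 and 0.00 ± 0.07, and the first also changed sign with scaling. None of these 5 genes passed, with limma adjusted p from 0.64 to 0.988.

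RPL5 and RPL11 form a particle with 5S ribosomal RNA that binds MDM2 when assembly is disturbed. RPL5 measured 13.88, 13.91 and 13.92 in DMSO and 13.87, 13.89 and 13.88 in YW3-56 (-0.02 ± 0.07 SE, limma adjusted p = 0.86). RPL11 measured 11.98, 12.02 and 12.02 in DMSO and 11.88, 11.91 and 11.98 in YW3-56 (-0.09 ± 0.07, adjusted p = 0.473). The RPL5 groups overlapped, and those of RPL11 were barely apart. RPS6, the substrate of S6 kinase, measured 12.08, 12.21 and 12.26 in DMSO and 12.04, 12.11 and 12.09 in YW3-56 (-0.11 ± 0.08), with overlapping groups.

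The 8 paralogues of core ribosomal proteins include RPL22L1 and RPL7L1, which fell, and 6 that were not called. RPL36AL, which differs little from RPL36A, came nearest, with 11.08, 11.05 and 11.14 in DMSO and 10.94, 10.90 and 10.95 in YW3-56 (-0.16 ± 0.07 SE, limma adjusted p = 0.153). RPL3L, a form known from striated muscle, had a difference of -0.07 ± 0.17, and RPL10L and RPL39L, known from testis, had 0.06 ± 0.11 and -0.03 ± 0.09. RPS27L, a close relative of RPS27, had 0.04 ± 0.10, and RPS27 itself -0.02 ± 0.07. Core members numbered 57, of which 4 were called lower, or 7.02%. Among the 8 paralogues the share was 25%, and over all genes it was 11.5%. The paralogue share rests on only 2 genes.

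By subunit, 5 of 43 members of the 60S subunit and 1 of 22 of the 40S subunit were called lower, with median differences of -0.05 and -0.08. These are 11.6% and 4.55%, beside 11.5% of all genes. All 6 called members had a mean under 12 over the 6 arrays, a bound chosen after the values were seen. They make up 6 of 27 members in that range, while 0 of 38 members at 12 or above were called. Over all tested genes the shares called lower were 11.5% under 12 and 11.8% at 12 or above. Across the 65 members the difference and the mean signal correlated at a Pearson r of 0.44 and a Spearman rho of 0.52, as a description over genes of the same 6 arrays. The largest value of any probe set was between 14.64 and 14.69 on each array, and members such as RPL18, at 14.08, 14.06 and 14.11 in DMSO, came close to it. Whether a ceiling of the signal took part was not tested.

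**Figure D3:**
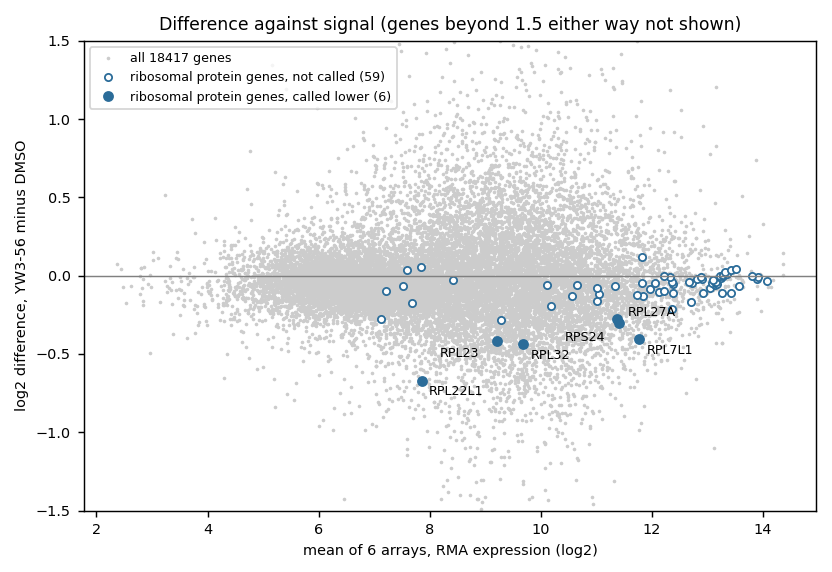
Log2 difference (y axis) against the mean of the 6 arrays (x axis, log2) for tested genes in grey and ribosomal protein genes in blue. Of the 18417 tested genes, those beyond the limits of the y axis are not shown. Filled points were called. Members at a mean of 12 or more lie close to 0, and the 6 called members lie at lower means.

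More than 1 probe set with the member's symbol alone was present for 23 members and a single one for 42. All 65 members together had 100 such probe sets. When every single-symbol probe set was tested, 11 of the 100 were called lower and 0 higher, a share near the 11.5% called lower among all 19460 such probe sets. In a comparison chosen after the values were seen, the dimmest probe set of a gene had a lower difference than the brightest in 20 of the 23 members, while this was so for 47.3% of all 769 genes with more than 1 probe set. The median difference was -0.04 for the brightest and -0.08 for the dimmest.

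RPL27A showed the widest gap between its probe sets. Its brightest fell by 0.28, another by 0.48 (limma adjusted p = 0.009) and the remaining one by 1.17 (adjusted p = 0.0038). The last of these measured 10.29, 9.77 and 9.64 in DMSO and 9.04, 8.52 and 8.65 in YW3-56, so that the groups were apart but DMSO replicate 1 stood high. In RPL12, a 60S stalk-base protein, the dimmest probe set fell by 0.37 (adjusted p = 0.048), while the brightest 3 differed by -0.03, -0.03 and -0.01. In RPL13 the dimmest fell by 0.26 (adjusted p = 0.0403), against -0.08 for the brightest. The dimmest probe set of RPL5 came to -0.24 (adjusted p = 0.0551). RPL41 has a pair of probe sets with identical values on all arrays, which count as 1 measurement. Ribosomal protein messages have close copies in processed pseudogenes, and which copies each probe set reads was not tested.

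**Figure D4:**
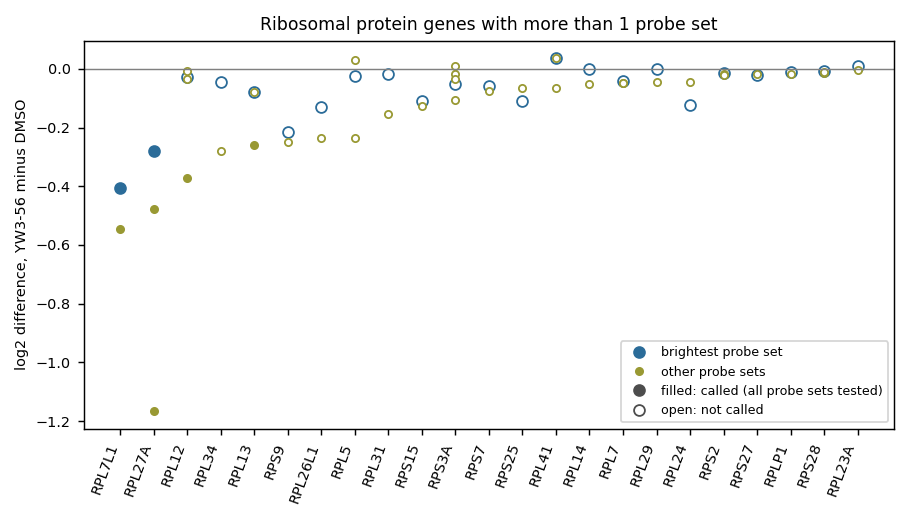
Log2 difference (y axis) of every probe set of the 23 ribosomal protein genes with more than 1, the brightest in blue and the others in olive; filled points were called with all probe sets tested. RPL27A spans -0.28 to -1.17, and RPL12 and RPL13 each have a single called probe set.

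Within the RefSeq bounds of 20 members lie 41 snoRNA genes, of which 18, in 12 members, were measured under their own symbol. All 18 were called lower, beside 11.5% of all genes, with a median log2 difference of -0.89 and treated arrays wholly below the controls. Leaving out 1 array gave counts from 15 to 18. By their brightest probe sets, the ribosomal protein genes around them had differences from -0.42 to 0.04. Of those 12 members only RPL23 and RPL27A were called. SNORD15A measured 9.22, 8.72 and 9.05 in DMSO and 7.78, 7.78 and 7.76 in YW3-56 (-1.23 ± 0.12 SE), inside RPS3 with its difference of 0.04. SNORD21 fell by 1.05 inside RPL5, whose probe sets differed by -0.02, 0.03 and -0.24. SNORA3B fell by 1.44 inside RPL27A, and SNORA52, with the smallest fall of 0.49, lies inside RPLP2. In RPL12, whose brightest probe set differed by -0.03 and dimmest by -0.37, SNORA65 fell by 0.64. In RPL27A the probe set that fell by 1.17 differed more than SNORA3A, which fell by 0.60, and this was the exception: the other 17 snoRNA genes had a lower value than every probe set of the gene around them. The gap between snoRNA and surrounding gene was not tested, nor whether probe sets of the genes hold probes from snoRNA sequence. Whether a brightest probe set reads the gene around the snoRNA or a copy elsewhere in the genome was not tested either.

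Over all 20 members with a snoRNA gene inside, 3 were called lower (RPL32, RPL23 and RPL27A) and the median difference was -0.05. Of the 45 members without one, 3 were called as well (RPL22L1, RPL7L1 and RPS24), with a median of -0.06. The shares called lower, 15% and 6.67%, lie on either side of the 11.5% of all genes and rest on few genes.

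**Figure D5:**
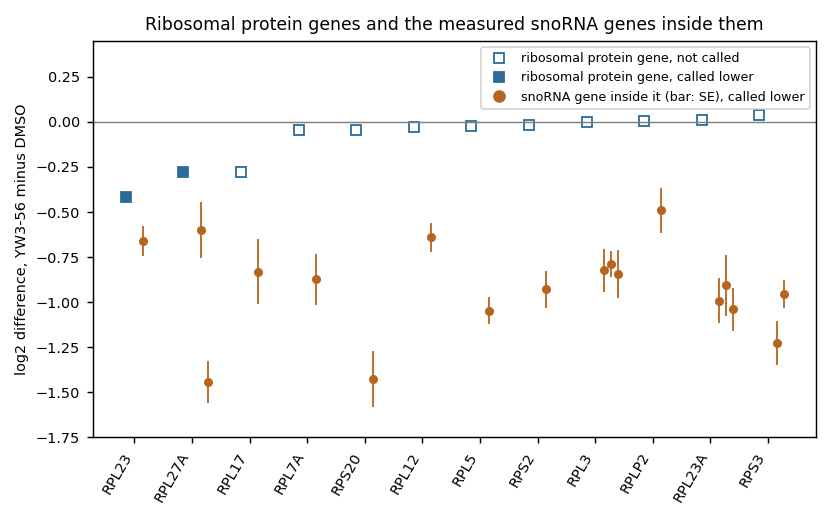
Log2 difference (y axis) of 12 ribosomal protein genes (squares, filled if called) and of the 18 measured snoRNA genes inside them (circles, with SE), each gene by its brightest probe set. All circles lie below the square of the gene they sit in, between -0.49 and -1.44. Whether a brightest probe set reads that gene or a copy elsewhere was not tested.

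Among listed genes that serve ribosomal proteins or ribosome assembly, many were called lower. The list used here joins chaperones and modifying enzymes of ribosomal proteins with assembly factors such as LTV1 and BYSL. Of its 18 measured genes, 11 were called lower and 1 was called higher. The share called lower was 61.1%, beside 11.5% of all genes and 18.6% of genes within the members' middle 80% of signal. The list was chosen with earlier results of these data known, so the share is a description and not a test. The median log2 difference was -0.32, and leaving out 1 array gave counts of falls from 8 to 11. GRWD1, the chaperone of RPL3, fell by 0.88 ± 0.09 (SE, limma adjusted p = 5.2e-04), LTV1, a 40S assembly factor that binds RPS3, by 0.85 ± 0.10 and BYSL, a 40S assembly factor, by 0.71 ± 0.09. HEATR3, which carries RPL5 into the nucleus, fell by 0.57 ± 0.08, and RIOX2 by 0.52 ± 0.08. TSR2, which escorts RPS26, rose by 0.40 ± 0.11 (adjusted p = 0.0362).

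Other transcripts known for the TOP tract were mostly near 0. Of 18 such genes, 0 were called in either direction by limma, beside 21.4% of all genes, and the median was -0.03. An unadjusted limma p under 0.05 was reached by 3 of the 18, beside 31.6% of all genes. The elongation factors EEF1A1 and EEF2 had differences of 0.01 ± 0.07 (SE) and -0.02 ± 0.07. The largest differences were those of HNRNPA1, an RNA-binding protein (-0.42 ± 0.17, limma adjusted p = 0.131), CCNG1, a cyclin (0.24 ± 0.08, adjusted p = 0.0826), and IPO5, a nuclear import receptor (-0.17 ± 0.07, adjusted p = 0.122). Overlap between groups was present for HNRNPA1, where DMSO ranged from 7.22 to 7.96. FAU, a ribosomal protein outside the name rule, differed by -0.15 ± 0.10 and did not pass. Of 13 genes that control TOP messages, 2 were called higher and 3 lower, 15.4% and 23.1% beside 9.84% and 11.5% of all genes, a gap of few genes in so short a list. LARP1, which binds the tract, differed by 0.01 ± 0.07, LARP4B fell by 0.39 ± 0.07, EIF4G1 by 0.34 ± 0.08, and TIA1 rose by 0.38 ± 0.08.

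In the list for stalled ribosomes and their quality control, 3 of 18 measured genes were called lower and 2 higher (median -0.04). These shares, 16.7% and 11.1%, lie near the 11.5% and 9.84% of all genes. ABCE1, which splits ribosomes into subunits, fell by 0.97 ± 0.09 (SE, limma adjusted p = 3.7e-04), G3BP1, which takes part in 40S quality control, by 0.34 ± 0.07 and MAP3K20, a kinase that senses stalled ribosomes, by 0.34 ± 0.10, while the ubiquitin ligase RNF14 rose by 0.28 ± 0.08.

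The label of the line was checked on its markers. All 7 genes listed as high in MDA-MB-231, such as VIM and CD44, had means from 12.81 to 13.70, while ESR1, PGR, GATA3, CDH1 and ERBB3 lay below the median gene at 8.20. FOXA1, at 8.95, lay above that median, and of 8 measured markers of other cell types KRT14 did, at 8.30.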

How the data were processed

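The deposited log2 values of 33297 probe sets on 6 arrays were made by the authors with RMA and the affy package, per the submitters' processing notes, with versions and array annotation build not given in the sources used here. Depth has no counterpart on arrays, so their number limits precision. A single symbol was listed for 19460 probe sets. Group was the only term in limma 3.58.1 (R 4.3.3, lmFit and eBayes, two-sided), fitted over 18417 genes without a filter and tested on simulated data. Deviations of same-numbered arrays from the group means correlated at 0.54, 0.37 and 0.10 over genes, each above 0.1 before rounding, so replicate number was run as a block. YW3-56 replicate 2 correlated somewhat better with DMSO replicate 3, at 0.42. Other alternatives were scaling, signal filters, other probe set choices, priors, array weights and leaving out each array. Genes were named by rule: the 8 called members with the largest rise and the 8 with the largest fall without overlap, fixed names, and the 3 of each further list with the largest change, called first. Others given were chosen after their values were seen. One of the lists is not reported here. Members and lists were chosen with earlier results of these data known. RefSeq (GRCh38.p14) gave start windows and snoRNA positions, and all 65 members matched. No protein sequence is shown.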

Additional observations from a re-analysis of the deposited data

How the results depend on the processing

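The count of members called lower, 6 in the fit reported, ranged from 3 to 6 when 1 array was left out, with the lowest count of 3 without YW3-56 replicate 3. The shares then ran from 4.62% to 9.23% of members and from 6.55% to 14.1% of all genes. The count of members was 10 with a trended and robust prior, which added RPS9, RPS14, RPS21 and RPS25. With replicate number as a block it was 8, adding RPL17 and RPS21, and the block changed no other member's call. It was also 8 with array weights, without shared variance (RPL22L1 lost) and with the dimmest probe set, which was chosen after seeing the data, and 9 among genes above the median signal. The share called lower over all genes moved as well: it was 14.4% with the block (members 12.3%), 18.6% with array weights (12.3%), 25.6% above the median signal (15.5%), 11.4% with the dimmest probe set (12.3%) and 8.40% without shared variance (12.3%). The count of members called higher was 0 in every alternative. For the 6 called members, 88 of 101 alternative values kept sign and call and the other 13 lost the call; causes were not tested. Of all members, 9 turned sign with a second quantile normalization, 11 with centring, 11 with array weights, 2 with the dimmest probe set and 4 to 12 when 1 array was left out, each with a reported difference under 0.07 in size. Among the named ones, a second quantile normalization gave RPLP1 0.021, RPL3 0.013, RPL7 0.0010, RPL39L 0.0053 and RPS27 0.0085. Centring gave RPLP1 0.017, RPL5 0.0031, RPL3 0.025 and RPS27 0.0060. Array weights gave RPLP2 -0.0018, RPL3 0.028 and RPL39L 0.016. Leaving out 1 array gave -0.028 to 0.0096 for RPLP1, -0.013 to 0.025 for RPLP2, -0.031 to 0.016 for RPL3, -0.27 to 0.11 for RPL3L, -0.025 to 0.16 for RPL10L, -0.099 to 0.057 for RPL39L, -0.053 to 0.012 for RPS27 and -0.032 to 0.12 for RPS27L. The filter at the median signal leaves out 7 members, RPL22L1 and RPL17 among them, and the count of snoRNA genes called lower was 10 with it, since fewer were tested.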

Other observations

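Probe sets with ribosomal protein symbols outside the 65 genes were tested as well. Of 47 probe sets that list several symbols, at least 1 of them of the name rule, 6 were called lower and 0 higher when all 33297 probe sets were tested, where 6.50% of all were called lower, with a median of -0.03 and a range from -1.06 to 0.04 on the log2 scale. Of 21 probe sets with a ribosomal protein pseudogene symbol, 2 were called lower and 0 higher. These were RPSAP52 (-0.96 ± 0.09 SE, limma adjusted p = 0.0022) and RPL23AP53 (-0.49 ± 0.10, adjusted p = 0.024). RPL13AP5, whose probe set had a mean of 13.77, differed by 0.03 ± 0.07.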
